A study of Rattus norvegicus with 4 samples.

Results

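Among the transcripts counted in rat footpad skin, 15 entries known by a UniGene-type identifier alone had their highest level in the library taken before irradiation. UniGene was a collection of expressed sequence tags and messenger RNAs grouped by sequence, and an entry that carries only such an identifier stands under no numbered gene in the authors' annotation. The 15 were chosen by their deposited values: at least 20 CPM on day 0, and at least 2 times the highest value of days 3, 6 and 9. CPM are tag copies scaled by the authors to the number of tags in the library. Entries described as cytochrome oxidase, NADH dehydrogenase subunit, stefin or cystatin were left out, which removed 2 entries, both of cytochrome oxidase. The 15 were drawn from 7486 UniGene-only entries, of which 441 reached 20 CPM on day 0, and from 18957 entries in all. Because the day 0 excess chose them, it is described here and not tested.

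The skin was taken from the hindlimb footpads of rats of the outbred Sprague Dawley strain, in a model of radiation dermatitis. By the sample titles the day 0 library preceded irradiation, and the protocol gives 4 irradiations of 10 Gy on days 1, 2, 4 and 5 (9 MeV electrons, 500 cGy/min). By that schedule the day 3 skin followed 2 irradiations and the skin of days 6 and 9 followed all 4. The sample descriptions differ from this in places: the one for day 0 names day 1 as the collection day, and each later one names a single irradiation day. Each day had 1 library, and no animal number, sex, age or hour of collection is given, so the values have no replicate error. Intervals express the error of counting alone. Counts assigned to entries came to 1982608, 1968034, 1967902 and 1952921 on days 0, 3, 6 and 9. In bulk skin, fewer cells of a type and less RNA per cell cannot be told apart.

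Little is known from the files about most of these entries. A protein description, the best match of the entry in a protein database, was present for 4 of the 15 and absent for 11. With entries of the left-out descriptions set aside, 426 of the 441 remained, and of the 411 that were not chosen 44.5% had one. The first of the 4, Rn#S56125990, matched a pig protein described as pol protein. Retroviral pol genes encode reverse transcriptase and integrase, and mammalian genomes carry many inherited copies of retroviruses that can be transcribed. The second, Rn#S47577796, matched the spliceosome protein Sm D3, one of the proteins that form a ring around the small nuclear RNAs used in splicing. Rn#S56142267 matched a predicted rat protein, rCG45246, and carried annotation terms for chromatin and nucleosome organization, the packing of DNA around histones. Rn#S21037739 matched a predicted mouse protein, mCG1030994, with no annotated role.

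Each entry was counted through 21-base tags that begin at a CATG site, so the level of an entry does not scale with transcript length. For 8 of the 15 the day 0 count came from 1 tag, against 34.1% of the other 411 entries. The most abundant tag lay at the CATG site nearest the 3′ end of the entry in 12 of the 15, against 73.0% of the others. The tags below are the most abundant tag of each entry. They are shown because for the 11 entries without a description they are the only identity the files give. Capitals mark the CATG site, and each is written 5′ to 3′. First come the 4 entries with a protein match.
Rn#S56125990 (pol protein): CATGcatctgcttctgtaagc
Rn#S47577796 (Sm D3): CATGaaaaataaaaaccaagg
Rn#S56142267 (rCG45246): CATGtcggaaactgctcctgc
Rn#S21037739 (mCG1030994): CATGcttaaactgcccttgag

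The 11 entries without a match follow, in the order of their day 0 value.
Rn#S56149933: CATGctaatgttcaaagtaaa
Rn#S29272788: CATGttgccgctagaacttcc
Rn#S56134435: CATGtaacctttggcatctgt
Rn#S14124641: CATGgaatattttaaggcaat
Rn#S21017050: CATGgtaattagagtcatcgt
Rn#S29284076: CATGaaagtctggaagcagcg
Rn#S29282372: CATGaccttgactgcggagtc
Rn#S13908247: CATGactacatacagtacatc
Rn#S14166422: CATGatgaatcaacttatcgg
Rn#S31151284: CATGgctcaaacaaggccact
Rn#S20996805: CATGtccccagcagcttctct
The 17 bases after the CATG had a median GC content of 47.1% over the 15 tags (23.5 to 58.8%) and of 41.2% over the leading tags of the other 411 entries. All 15 tags were searched on both strands in 33469 RefSeq promoter windows of the GRCr8 assembly. Only the pol tag was found.

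The summed value of the 15 entries was 1036 CPM on day 0, 293 on day 3, 244 on day 6 and 319 on day 9. The pol entry made up 38.8% of the day 0 sum. Without it the sums were 634, 266, 217 and 191 CPM, lower in each later library than in the one before. From day 6 to day 9 the fall of Rn#S56149933 alone, from 63.8 to 23.8 CPM, was larger than that of this sum. Some of the other entries were higher on day 9 than on day 6, so the decline was not shared by all. The ratio of the day 0 value to the highest later value had a median of 2.30 and ran from 2.04 to 4.52, and 12 of the 15 lay below 3. All 15 were detected in every library, so none was lost outright.

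**Figure D1:**
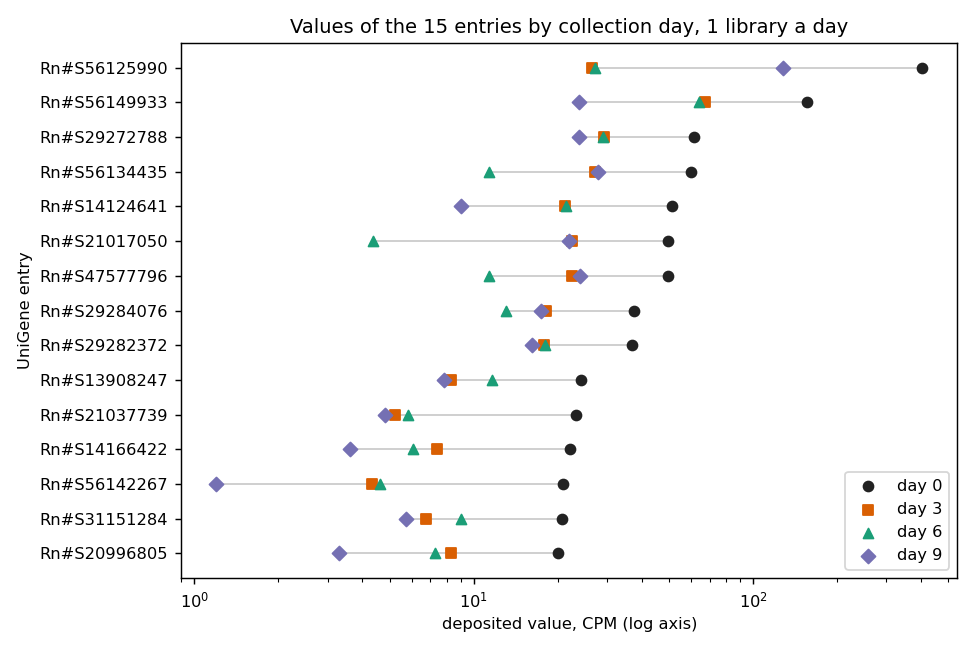
Deposited values (CPM, log axis) of the 15 UniGene-only entries, 1 row for each entry in the order of their day 0 value and 1 marker for each collection day, with 1 library a day and no error bars. The day 0 markers run from 20.1 to 403 CPM and lie to the right of the other markers in every row, as the choice of entries requires, while the later days are ordered differently from row to row.

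The pol entry was the most abundant of the 15 on day 0 and the furthest from its day 0 level on days 3 and 6. Its values were 403, 26.5, 27.3 and 128 CPM on days 0, 3, 6 and 9, from counts of 1402, 86, 94 and 427. It was low in the libraries of days 3 and 6 and intermediate on day 9. Folds between days are ratios of counts scaled with TMM factors, with an exact 95% Clopper-Pearson interval. The day 0 count was 16.3-fold that of day 3 (13.2 to 20.6), 14.4-fold that of day 6 (11.8 to 18.0) and 3.13-fold that of day 9 (2.80 to 3.49). The day 9 count was 4.61-fold that of day 6 (3.70 to 5.85) and 5.21-fold that of day 3 (4.15 to 6.68).

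A tag that differs by 1 base from the leading pol tag stood under another UniGene entry, Rn#S16462806, described as a polymerase polyprotein of the mouse. On each later day it was higher than on day 0, where the leading pol tag was lower. The pair is shown because the entry's level depends on which version is counted. The substitution is A19T, with the base of the Rn#S56125990 tag first and position 1 at the C of CATG, and capitals again mark the CATG site.
Rn#S56125990: CATGcatctgcttctgtaagc
Rn#S16462806: CATGcatctgcttctgtatgc
The first version had 1338, 60, 75 and 392 copies on days 0, 3, 6 and 9, and the second had 193, 287, 419 and 609. The first version thus made up 87.4% of the pair on day 0 and 17.3, 15.2 and 39.2% on days 3, 6 and 9. The second version was 1.48-fold (1.23 to 1.78) its day 0 level on day 3, 2.23-fold (1.88 to 2.66) on day 6 and 3.31-fold (2.81 to 3.91) on day 9. It was higher in each later library than in the one before. From day 3 to day 9 the first version rose as well, from 60 to 392 copies.

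Summed over both versions, the pair had 1531, 347, 494 and 1001 copies, or 440, 107, 143 and 301 CPM. The sum was still highest on day 0, by 4.43-fold (3.94 to 5.00) over day 3 and 3.01-fold (2.72 to 3.34) over day 6. Over day 9 the excess was 1.46-fold (1.34 to 1.58), so the sum of the pair no longer met the rule. Both versions are present in the rat reference, at different places. The first was found in the promoter windows of 2 long non-coding RNA genes, LOC134480394 on chromosome 9 and LOC120096224 on chromosome 13 (GRCr8). The second was found in 4 other windows, among them those of LOC134485986 on chromosome 2 and LOC134480939 on chromosome 11. A match gives the letters only and does not show which copy was transcribed, and counts of near-identical copies cannot be divided among them with certainty.

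**Figure D2:**
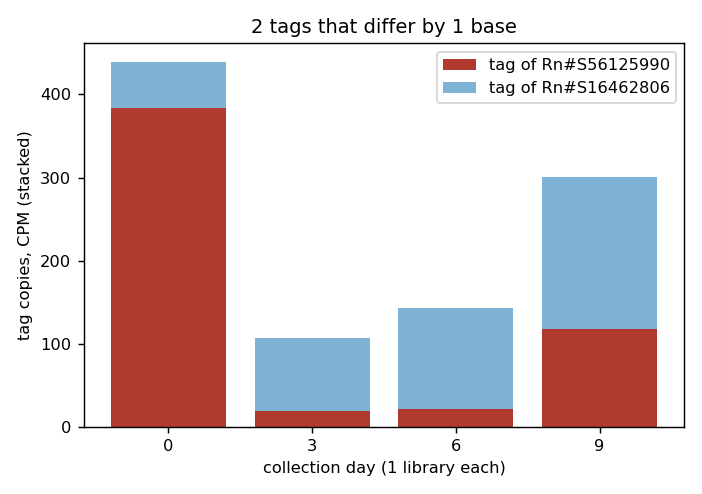
Copies of 2 tags that differ by 1 base (CPM, stacked bars from 0) by collection day, with 1 library a day and no error bars. The tag of Rn#S56125990 fills 87.4% of the bar on day 0 and 15.2 to 39.2% of it later, while the tag of Rn#S16462806 is taller on each later day.

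None of the other 14 leading tags had such a neighbour: tags 1 base away from them had at most 4 copies in any library. A tag 1 base apart with at least 30 copies that was the more abundant on a later day was thus found for 1 of the 15 entries and for 8 of the other 411 (1.95%). The second tag of the pol entry itself, at another CATG site, had 42, 20, 6 and 26 copies. It was 2.08-fold (1.21 to 3.79) higher on day 0 than on day 3, against 22.2-fold (17.3 to 29.5) for the leading tag. On day 9 the interval of the second tag included 1 (1.53-fold, 0.922 to 2.61), while the leading tag was 3.25-fold (2.90 to 3.65) lower than on day 0. On day 6 both tags were below day 0, by 6.35-fold (2.88 to 19.6) at the second site and 17.2-fold (13.7 to 22.2) at the leading one, with intervals that overlapped. On days 3 and 9 the intervals of the 2 sites did not overlap. The choice of the entry favoured a day 0 excess at the leading tag.

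Few other entries had a description like that of the pol entry. Of the 4 others with a description as pol protein, polyprotein or reverse transcriptase, 2 reached 50 counts in a library compared, and neither was lower on any later day by the size rule used here. That rule asks for scaled counts that differ by 2-fold or more, an interval without 1, and 50 or more counts on the day with the higher level. Over all entries with enough counts it called 7.88, 13.1 and 10.4% lower than day 0 on days 3, 6 and 9, and 8.54, 7.48 and 10.7% higher. The 2 entries are too few to set against these shares, and the pol entry was itself chosen for its day 0 excess. Rn#S16462806, whose count is mostly the A19T tag given above, had 60.3, 92.4, 126.5 and 190 CPM. Too sparse for the rule were Rn#S14808260, with counts of 9, 3, 4 and 14, and Rn#S14186376, with 0, 0, 2 and 5. Rn#S56126636, described as a polyprotein, had 12.6, 17.9, 27.6 and 20.4 CPM and was 2.21-fold (1.54 to 3.25) higher on day 6 than on day 0. These entries were grouped after the descriptions of the 15 had been seen.

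The entry matched to Sm D3, Rn#S47577796, was counted through 1 tag. Its values were 49.7, 22.5, 11.3 and 24.1 CPM, from counts of 173, 73, 39 and 80. It was lowest on day 6, with days 3 and 9 close together. The day 0 count was 2.37-fold (1.80 to 3.18) that of day 3, 4.27-fold (3.03 to 6.27) that of day 6 and 2.05-fold (1.57 to 2.72) that of day 9. A second entry with the same description, Rn#S30537882, had counts of 9, 11, 12 and 4, too few for the rule.

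The other entries of the Sm ring were gathered after the members had been seen, and 5 of 7 had enough counts. By the size rule 0 of these 5 were lower than day 0 on day 3, 1 on day 6 and 1 on day 9, and 0 were higher. Over all entries 7.88, 13.1 and 10.4% were lower on these days, and 5 entries are too few to set against these shares. Snrpe had 123, 120, 58.9 and 79.1 CPM and was the one below day 0 on day 6, by 2.05-fold (1.73 to 2.44). Snrpb had 131, 106, 119 and 61.0 CPM and was the one below day 0 on day 9, by 2.13-fold (1.81 to 2.53). Snrpd1, which encodes Sm D1, had 33.0, 23.1, 30.5 and 33.4 CPM. The median day 0 to later ratio of the 5 was 1.46 on day 3, 1.08 on day 6 and 1.55 on day 9. Over all entries with 50 counts it was 1.03, 0.978 and 1.01.

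The chromatin-annotated entry, Rn#S56142267, had 20.96, 4.31, 4.64 and 1.2 CPM, from counts of 73, 14, 16 and 4 of 1 tag. Its day 0 to highest later ratio of 4.52 was the largest of the 15. The day 0 count was 5.09-fold (2.93 to 10.1) that of day 3, 4.33-fold (2.55 to 8.16) that of day 6 and 15.6-fold (6.51 to 65.5) that of day 9. The width of the last interval reflects 4 counts. In all, 77 other entries carried the same term for nucleosome organization. Of those with enough counts, 2 of 25 were lower than day 0 on day 3, 0 of 28 on day 6 and 4 of 27 on day 9. In the other direction, 2, 6 and 5 were higher. Over all entries with enough counts 7.88, 13.1 and 10.4% were lower and 8.54, 7.48 and 10.7% were higher, so the counts of day 3 in both directions were near the background. H2afx, a histone H2A variant marked at DNA breaks, was among the lower ones, with counts of 65, 21, 61 and 27. H2afj, another H2A variant, was among the higher ones, with counts of 17, 38, 62 and 153. H2afx and H2afj were named after their values were seen.

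The entry matched to mCG1030994, Rn#S21037739, had 23.3, 5.23, 5.80 and 4.81 CPM, from 1 tag with counts of 81, 17, 20 and 16. The 3 later values were close together, and the day 0 count was 4.68-fold (2.81 to 8.62), 3.86-fold (2.39 to 6.78) and 4.71-fold (2.80 to 8.84) theirs.

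How the later days compare with each other was not used to choose the entries, except that their highest value was capped. By the size rule, 0 of the 9 entries with at least 50 counts were higher on day 6 than on day 3, where 2.88% of all entries with enough counts were called, and 2 were lower (6.74% of all). On day 9 against day 3, 1 of 9 was higher (6.41% of all) and 2 were lower (4.59% of all). On day 9 against day 6, 4 of 9 were higher (10.0% of all) and 2 were lower (4.37% of all). The 9 entries are few, and 6 of the 15 had under 50 counts in every later library. The median log2 ratio of day 9 over day 6 was 0.39 over the 9 entries but -0.31 over all 15, against -0.02 over all 5127 entries with enough counts, so the sign depends on whether the sparse entries are included.

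**Figure D3:**
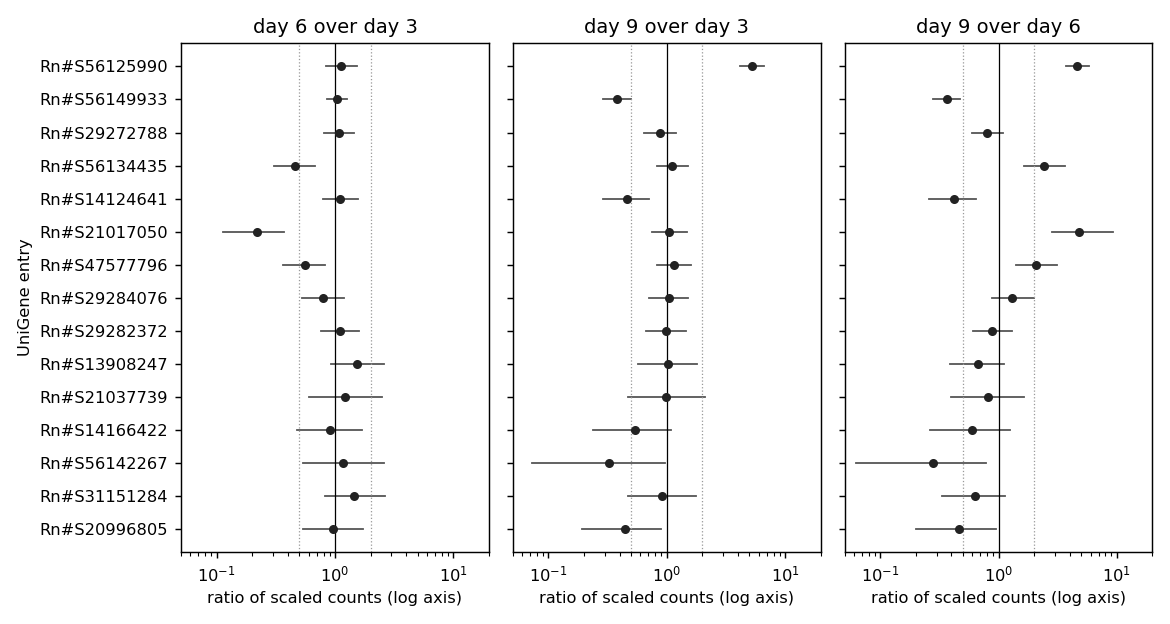
Ratios of scaled counts between the later days (log axis) for each of the 15 entries, with exact 95% counting intervals as bars. The solid line marks equal counts and the dotted lines 2-fold. Rn#S21017050 and Rn#S56134435 lie past the lower dotted line for day 6 over day 3, and 4 entries lie past the upper one for day 9 over day 6.

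In 3 entries besides pol the day 9 level stood above that of day 6 by the rule, and each had its lowest value on day 6. Rn#S21017050 had 49.7, 22.5, 4.35 and 21.9 CPM, from counts of 173, 73, 15 and 73 of a single tag. Days 3 and 9 were alike, and day 6 stood apart from both. The day 3 count was 4.58-fold (2.67 to 8.83) that of day 6, and the day 9 count was 4.83-fold (2.82 to 9.31) that of day 6. Rn#S56134435 had 59.7, 27.1, 11.3 and 28.0 CPM, with day 3 2.17-fold (1.48 to 3.27) and day 9 2.41-fold (1.66 to 3.63) above day 6. The Sm D3 entry was the third, at 2.08-fold (1.41 to 3.15) for day 9 over day 6, while its day 3 count was 1.80-fold (1.21 to 2.74) that of day 6 and short of the rule.

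The day 6 library also differed in the markers of other tissues. Of 6 skeletal muscle markers 5 were listed in the files. Their summed level was 1081, 2504, 0 and 2127 CPM on days 0, 3, 6 and 9, with all 5 at 0 on day 6, among them Acta1, Myh1 and Ckm. The 5 sweat gland markers summed to 135, 257, 35.1 and 157 CPM, and 4 of them were above 0 on day 6. Both sums were higher on day 3 than on day 0. The choice of entries set how the 3 entries compare on these days, so they are not compared with the sums there. The red cell marker Hbb and the sums for adipocytes and mast cells were also lower on day 6 than on days 3 and 9. Sums for keratinocytes and endothelium were highest on day 6, and those for fibroblasts, macrophages and nerve lay between days 3 and 9. The part of these tissues in the day 6 values of the 3 entries was not tested.

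In 2 other entries the day 9 level was lower than those of both days 3 and 6. Rn#S56149933, the second most abundant of the 15 on day 0, had 156, 67.4, 63.8 and 23.8 CPM, from counts of 545, 219, 220 and 79. Days 3 and 6 were level, and day 9 was below them. The day 3 count was 2.62-fold (2.02 to 3.44) and the day 6 count 2.72-fold (2.10 to 3.58) that of day 9. Its leading tag held 94.9 to 98.2% of the count in every library. Rn#S14124641 had 51.4, 21.2, 21.5 and 9.02 CPM, with day 3 2.16-fold (1.40 to 3.47) and day 6 2.40-fold (1.56 to 3.83) above day 9.

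Rn#S14124641 was read at 2 sites. Its 2 tags are given in the order of their copies, to show that the second site is a different sequence.
Rn#S14124641, first tag: CATGgaatattttaaggcaat
Rn#S14124641, second tag: CATGgaggcttctggtttttt
The first had 136, 55, 54 and 25 copies and the second 43, 12, 18 and 5. At both sites day 0 was highest, which the choice of the entry favoured, and day 9 was lowest. The day 0 to day 9 ratio was 5.10 (3.37 to 8.29) at the first and 7.53 (3.25 to 26.5) at the second. Within 1 library the tags come from the same RNA sample, so they are not replicates.

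Rn#S14166422 was also read at 2 sites.
Rn#S14166422, first tag: CATGatgaatcaacttatcgg
Rn#S14166422, second tag: CATGtttagtctcacgtttat
The first had 51, 7, 6 and 7 copies and the second, at the site nearest the 3′ end, had 26, 17, 15 and 5. The choice of the entry favoured a day 0 excess at the first tag, which was ranked by copies that include those of day 0. The first was 6.90-fold (3.31 to 19.1) lower on day 3 than on day 0. For the second the interval included 1, at 1.52-fold (0.803 to 3.02). On day 9 both were below day 0, by 6.54-fold (3.14 to 18.1) at the first site and 4.59-fold (1.87 to 16.5) at the second, with intervals that overlapped. The first tag made up 66.2% of the entry on day 0 and 29.2, 28.6 and 58.3% later. The entry as a whole had 22.1, 7.39, 6.09 and 3.61 CPM, and with its most abundant tag alone it did not reach 20 CPM.

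The remaining entries showed no difference between later days that passed the rule. Rn#S29272788 had 61.4, 29.3, 29.0 and 23.8 CPM, Rn#S29282372 had 36.8, 17.9, 18.0 and 16.2 CPM, and Rn#S21037739 is given above. These are the 3 entries with less than 1.3-fold between their lowest and highest later value. Rn#S29284076 had 37.6, 18.2, 13.1 and 17.4 CPM, and none of its later ratios passed.

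In each of the 6 entries with under 50 counts in every later library, day 9 had the lowest CPM, in some by less than the counting error. The scaled day 3 count was 0.984-fold (0.553 to 1.76) that of day 9 in Rn#S13908247 and 1.01-fold (0.478 to 2.13) in Rn#S21037739. Rn#S20996805 had counts of 70, 27, 25 and 11, and its day 3 count was 2.27-fold (1.12 to 5.20) that of day 9. Rn#S13908247 had counts of 84, 27, 40 and 26, and Rn#S31151284 had 72, 22, 31 and 19, with day 6 the highest later day in both. Over the 15 entries, 10 had their lowest CPM on day 9, 4 on day 6 and 1 on day 3. The same share over all entries was not taken, so these counts are not read as a trait of the 15.

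Against day 0 itself the calls follow from the choice of entries and are given for completeness. By the size rule 15 of 15 were lower on day 3, 14 on day 6 and 15 on day 9, where 7.88, 13.1 and 10.4% of all entries with enough counts were lower. The exception was Rn#S29282372 on day 6, at 1.997-fold (1.47 to 2.76). The median share of the day 0 value that was left was 41.3% on day 3, 34.7% on day 6 and 31.9% on day 9.

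The same value rule was applied to numbered genes and to the other days. With cytochrome oxidase, NADH dehydrogenase subunit, stefin and cystatin entries left out of both sets, 15 of 426 UniGene-only entries of at least 20 CPM on day 0 met the rule (3.52%), as did 95 of 3253 genes with a numeric identifier (2.92%). With day 9 in the place of day 0, 10 of 446 UniGene-only entries (2.24%) and 66 of 3186 numbered genes (2.07%) did. With day 3 these were 2 of 463 and 31 of 3384, and with day 6 they were 1 of 433 and 5 of 3102. In both kinds of identifier the count was largest for day 0 and smallest for day 6. No test of this difference was made, since each day is 1 library.

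**Figure D4:**
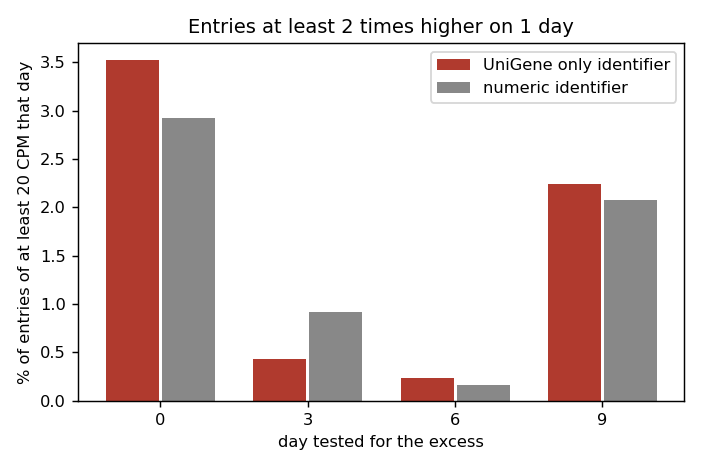
Percent of entries with at least 20 CPM on a given day that were at least 2 times their highest value on the other 3 days (bars from 0), for UniGene-only and numeric identifiers, with 1 library a day and no error bars. On day 0 the bars stand at 3.52 and 2.92%, and on day 6 at 0.231 and 0.161%.

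Entries on either side of the limits had like values. Just inside the ratio limit were Rn#S29282372 (2.04), the Sm D3 entry (2.07) and Rn#S29284076 (2.07), and just outside it Rn#S13875645 (1.99), Rn#S23844904 (1.92) and Rn#S14124579 (1.91). Just inside the limit of 20 CPM were Rn#S20996805 (20.1 CPM), Rn#S31151284 (20.7 CPM) and Rn#S56142267 (20.96 CPM), and just outside it Rn#S56142731 (19.5 CPM), Rn#S56150794 (18.7 CPM) and Rn#S14197761 (15.8 CPM). The number of entries depends on the later libraries used: without day 3 in the rule 31 would have qualified in place of 15, without day 9 there would have been 22, and without day 6 there would have been 18.

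**Figure D5:**
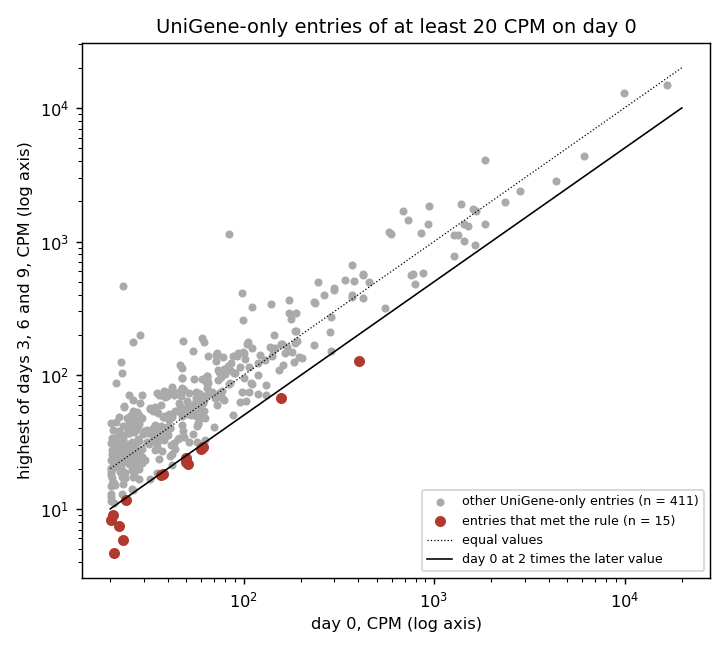
Day 0 value against the highest value of days 3, 6 and 9 (CPM, both log axes) for 426 UniGene-only entries of at least 20 CPM on day 0, 1 point each. The 15 chosen entries lie below the solid line of a 2-fold excess, most of them close to it, and the pol entry lies furthest right of them at 403 CPM.

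The marker lists bear on the whole libraries. Keratinocyte markers summed to between 13358 and 19461 CPM in the 4 libraries, with 7 of 10 markers listed and all 7 above 0 in each. Krt5, Lor and Dsg1 were not listed. Dermal fibroblast markers summed to 6397 CPM on day 0 and to between 21453 and 32342 CPM later, at least 3.35 times the day 0 sum. Sums for adipocyte markers (3 of 4 listed) ran from 49.7 to 299.6 CPM and for macrophage markers (5 of 5) from 91.3 to 244 CPM. Those for mast cell markers (3 of 4) ran from 67.2 to 192 CPM and for nerve markers (4 of 4) from 126 to 244 CPM. Each of these 4 sums was lowest on day 0. Endothelial markers (4 of 4 listed, 3 above 0 in each library) ran from 29.3 to 52.5 CPM. Hbb, 1 of 3 red cell markers and the only one listed, ran from 10.1 to 465 CPM, again lowest on day 0. The day 0 library thus differed from the later ones in the level of other tissues' markers, and the part of this in the day 0 excess of the 15 entries was not tested.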

How the data were processed

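Digital gene expression tags were measured in 4 libraries, 1 for each collection day, grouped by sample title. Per the file headers, the authors deposited a whole-number count for each entry, the sum of its tag copies, and a value headed TPM. In the files this deposited value equals CPM, relative to the tags with 2 or more copies, and is not scaled by length (0 entries departed by more than 0.006 CPM plus 1 ppm). The assembly was Rnor_6.0 per the submitters' processing notes, and the aligner is not given in the sources used here. The deposited lists of sequenced tags held 3592019, 3360368, 3556566 and 3442555 tags.

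The entries were chosen on the deposited CPM. Ratios used counts scaled with TMM factors (edgeR 4.0.16) and a prior count of 0.5, with exact 95% Clopper-Pearson intervals. No test across samples was possible with 1 library a day, and the intervals treat tags as independent molecules. Tags 1 base apart were looked up in the full tag lists, and needed 30 copies. Entries were named by a rule that allowed each member. The size rule and interval were tested on simulated counts with counting error alone, which does not cover differences between animals or libraries. The members and lists were chosen with earlier results of these data known. The lists of cytoskeleton, lipid, clock and similar genes were not used, since no member's description named such a role. Alternatives covered the limits, the scaling (also DESeq2 1.42.0 size factors), the count floor, the tags used and the later libraries used.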

Additional observations from a re-analysis of the deposited data

How the results depend on the processing

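The number of entries that met the rule was 15, and it moved most with the rule's own limits: 25 with a day 0 limit of 10 CPM, 5 with 50 CPM, 51 with a ratio of 1.5 and 3 with a ratio of 3. Without day 3 among the later days it was 31. With TMM or DESeq2 scaling it was 17 and held all 15. With 1 added to each value it was 13, and Rn#S13908247 and Rn#S29282372 left. With tags 1 base apart summed it was 14, and the pol entry left. That entry also left in an alternative chosen after seeing the data, without entries whose leading tag has a neighbour under another entry (14). Between later days, a limit of 10 counts or none gave 4 in place of 2 entries lower on day 9 than on day 3, and 4 in place of 2 lower than on day 6. No other alternative between later days changed a count by more than 1.5 times. The median ratio of day 0 to the highest later day was 2.25 and ran from 2.17 to 2.33 over 4 other settings. No paired analysis was possible because each day has 1 library. Counts below 50, as in 6 entries on all later days, leave wide intervals.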
